A study of Rattus norvegicus with 6 samples.

Results

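The genes described here build and load the autophagosome, the double membrane in which a cell encloses its own proteins and organelles and delivers them to the lysosome. They were 42 genes chosen by name, the autophagy machinery and the receptors that tie cargo to it. Of the 42, 41 were among the 17273 genes of the authors' larger table, and 1, the protease gene Atg4a, was absent from it. All 41 were among the 13747 genes that passed the filter on low counts, and their counts ran from 17 to 31471 per library with no library at 0.

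RNA was sequenced from rat nucleus pulposus cells, the cells of the soft core of the intervertebral disc, in 2 groups of 3 libraries. One group had been given 10 mM lactate for 8 h, and the control group was untreated. All cells were wild type, of male Sprague Dawley rats, in DMEM with serum. The labels do not say whether the lactate was acid or salt, give no age or passage, and do not say whether the libraries of a group were separate cultures or animals, so each p-value rests on the spread among these 6 libraries alone, and that spread may be technical.

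Starvation and stress start autophagy through the ULK kinase complex, which switches on a lipid kinase complex built around Beclin 1 at the site where the membrane forms. ATG9 vesicles and ATG2 bring lipid to it, and an enzyme cascade resembling that of ubiquitin attaches the small ATG8 proteins, LC3 and the GABARAPs, to the growing membrane. Receptors such as p62 bind the cargo on one side and the ATG8 proteins on the other, and SNARE proteins and tethers then fuse the closed vesicle with the lysosome. Autophagy is much studied in disc cells, which live with little oxygen and glucose and at high lactate. The RNA levels below measure neither the proteins nor the flow of material through the pathway.

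Levels are given in CPM, reads relative to the size of the library after scaling by TMM factors, which align the bulk of genes between libraries. Differences are log2 fold changes of lactate relative to control, with their standard error (SE), and positive values are higher with lactate. Genes past an adjusted p of 0.05 in edgeR's quasi-likelihood test, fitted over all genes, are referred to as called. Where genes are compared with each other, the authors' FPKM is used, which is per transcript length. FPKM carries no TMM factors, so between groups it differs as with library totals. It can go the other way from a fold change with TMM factors.

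Lactate and control libraries differed across the whole transcriptome, and the scaling set much of the direction. Libraries held 30291357 to 35512356 counts in the lactate group and 33584741 to 38989574 in the control group. The TMM factors were 0.702 to 0.806 in the lactate and 1.32 to 1.36 in the control group. Over all genes tested the median log2 fold change came to -0.10 when TMM factors were used and to -0.95 when libraries were scaled by their totals. Of the cell type markers, Acan (aggrecan) was abundant, but the notochord gene Tbxt had 0 lactate and 12 control counts, Krt19 had 0 lactate and 9 control counts, and Col2a1 had 55 lactate and 39 control counts over 3 libraries. Markers of the nucleus pulposus (12 of 13 in the table) summed to 2503 to 2845 CPM in lactate and 2584 to 2889 CPM in control libraries, nearly all of it Acan. Others of that list went different ways, with Cd24 at 130 to 157 CPM in lactate and 25.7 to 31.9 CPM in control libraries, Sox9 at 9.43 to 21.4 CPM in lactate and 5.68 to 6.27 CPM in control libraries, and Pax1 at 102 to 156 CPM in lactate and 186 to 262 CPM in control libraries. Annulus and fibroblast markers (5 of 7 in the table, mostly Col1a1) summed to 100810 to 145326 CPM in lactate and 29556 to 35408 CPM in control libraries. Of the same list Mkx was at up to 7.34 CPM in lactate and 30.4 to 44.6 CPM in control libraries, and Pdgfra at 33.9 to 38.3 CPM in lactate and 90.5 to 104 CPM in control libraries, the opposite of the sum. Macrophage markers (4 of 6) summed to 4.09 to 5.39 CPM in lactate and 9.60 to 10.6 CPM in control libraries. That sum was mostly Cd14, while Cd68 was at 1.22 to 1.89 CPM in lactate and 0.407 to 0.742 CPM in control libraries, and Adgre1 had 0 lactate and 4 control counts. Endothelial markers (3 of 5) summed to 0.210 to 0.680 CPM in lactate and 0.116 to 0.487 CPM in control libraries, with Kdr at 9 lactate and 0 control counts. The part of these cell types in the results below was not tested, and in bulk RNA fewer cells of a type and less RNA per cell cannot be told apart.

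Of the 41 autophagy genes, 18 were higher in lactate libraries, 10 were lower and 13 were not called. That is 43.9% higher and 24.4% lower, beside 31.4% and 34.6% of all genes tested. In all 68.3% were called, close to the 66.0% of all genes, so the number of changes was near the background. Their median log2 fold change was 0.34. With a change of at least 2-fold there were 11 higher and 6 lower, 26.8% and 14.6%, beside 18.1% and 22.5% of all genes. The groups did not overlap in 29 of the 41, or 70.7%, beside 72.2% of all genes.

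The 7 genes called higher under both scalings were Gabarapl1, Map1lc3a, Sqstm1, Nbr1, Ulk1, Atg101 and Atg12, and no other member was called higher with library totals. The 10 genes called lower with TMM factors were all called lower with library totals as well. With library totals 22 members were lower in all, where 61.7% of all genes were lower, 12.6% higher and 74.3% called in all. With upper-quartile factors 16 members were higher and 15 lower, where 9228 of the 13747 genes tested were called in either direction. The split of those genes by direction was not determined. Of the 18 called higher with TMM factors, 9 were not called with library totals and 2, Map1lc3b and Atg9a, were called lower. The median of the members was then -0.49.

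**Figure D1:**
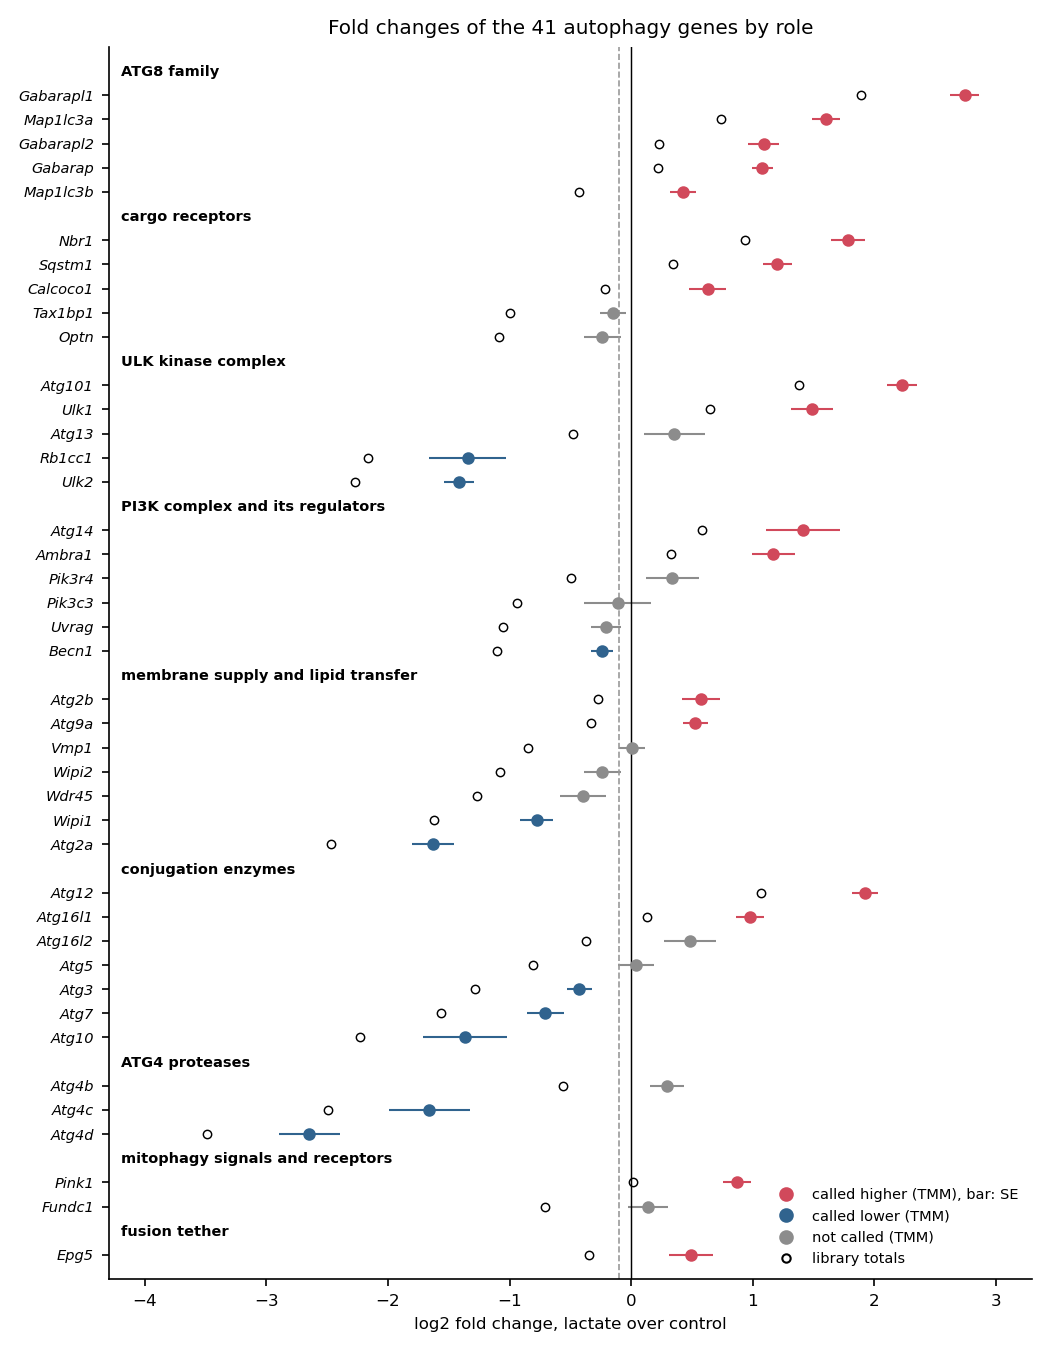
Log2 fold change with lactate relative to control (x axis) for the 41 autophagy genes, grouped by role. Filled points are the values with TMM factors with the SE as bars, colored by the call, open points are the values with library totals, and the dashed line is the median of all genes at -0.10. Gabarapl1 at 2.74 and Atg4d at -2.65 lie at the ends, and library totals move each gene left by a similar amount.

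Promoter sequences of 4 members are shown here, those of Gabarapl1 and Atg101, which rose most, that of Atg4d, which fell most, and that of Atg3, which held E-boxes. Each runs from 250 bases before to 50 bases from the RefSeq start of the gene in GRCr8, and capitals mark the motifs searched for.
Gabarapl1, chr4:164666082-164666381, plus strand: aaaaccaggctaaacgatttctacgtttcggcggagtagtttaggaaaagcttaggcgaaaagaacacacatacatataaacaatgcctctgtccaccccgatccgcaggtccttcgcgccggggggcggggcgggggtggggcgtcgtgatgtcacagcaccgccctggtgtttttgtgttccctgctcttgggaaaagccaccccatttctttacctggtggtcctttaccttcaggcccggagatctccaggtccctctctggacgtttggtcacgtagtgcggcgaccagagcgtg
Atg101, chr7:134276995-134277294, plus strand: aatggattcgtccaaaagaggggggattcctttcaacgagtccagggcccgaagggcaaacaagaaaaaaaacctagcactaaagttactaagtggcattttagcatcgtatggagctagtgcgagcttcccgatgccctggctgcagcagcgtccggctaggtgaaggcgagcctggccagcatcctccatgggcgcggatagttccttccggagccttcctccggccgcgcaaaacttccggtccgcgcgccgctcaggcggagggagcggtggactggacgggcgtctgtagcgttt
Atg4d, chr8:28083686-28083985, plus strand: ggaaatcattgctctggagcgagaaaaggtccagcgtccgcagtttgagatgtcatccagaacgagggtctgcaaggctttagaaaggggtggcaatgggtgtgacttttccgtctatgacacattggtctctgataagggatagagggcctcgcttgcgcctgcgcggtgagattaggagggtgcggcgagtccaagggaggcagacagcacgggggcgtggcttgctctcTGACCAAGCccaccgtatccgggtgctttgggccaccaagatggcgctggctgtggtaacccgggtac
Atg3, chr11:69159231-69159530, minus strand: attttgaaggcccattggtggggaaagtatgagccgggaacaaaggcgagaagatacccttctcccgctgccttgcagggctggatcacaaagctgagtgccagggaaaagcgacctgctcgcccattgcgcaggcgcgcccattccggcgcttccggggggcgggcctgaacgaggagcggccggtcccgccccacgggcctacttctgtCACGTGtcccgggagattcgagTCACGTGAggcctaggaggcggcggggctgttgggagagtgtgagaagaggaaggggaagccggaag
Neither Gabarapl1 nor Atg101 held any of the 5 motifs in this window. Atg4d held TGACNNNGC, the antioxidant response motif to which NRF2 binds, from 18 to 10 bases before its start. Atg3 held the E-box CACGTG at 39 and again at 16 bases before its start, the second inside TCACGTGA, the core of the lysosomal gene motif of TFEB.

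Motifs were searched on both strands in the promoters of the 36 members that have one in the table. CACGTG was in 5 of them (Atg3, Atg5, Atg14, Pink1 and Epg5), of which 3 were called higher and 1 lower, and in 9.13% of the promoters of all tested genes. TCACGTGA, which contains it, was in Atg3 and Epg5 and in 1.69% of tested genes. TGATGNAA, bound by ATF4 with its partners, and GTAAACA, bound by FOXO factors, were each in 1 member, Wdr45, and in 2.01% and 2.31% of tested genes. TGACNNNGC was in 7 members, 2 higher and 3 lower, and in 14.7% of tested genes.

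All 5 genes of the ATG8 family, the proteins that coat the autophagosome membrane and bind receptors, were higher in lactate libraries. Their median log2 fold change was 1.09. Of all genes tested 31.4% were higher and 34.6% lower, which stands beside this count and those by role below. All 5 lay in the upper 2 of 5 groups by level and the shorter 2 of 5 by transcript length. Over all genes the median was 0.62 in the highest level group and 0.46 in the shortest length group. The part of either was not tested. With the trend on length removed, Gabarapl1 (2.61), Map1lc3a (1.17), Gabarapl2 (0.92) and Gabarap (0.50) remained called higher. Gabarapl1, whose protein also binds tubulin and the GABA-A receptor, rose most of all 41 members. It was at 163, 170 and 196 CPM in the lactate libraries and at 23.8, 28.1 and 27.1 CPM in the control libraries. Every lactate library lay far above every control library, a 6.70-fold rise (log2 2.74 ± 0.12 SE, edgeR adjusted p = 1.5e-06).

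Map1lc3a, which encodes LC3A, was at 236, 264 and 212 CPM with lactate and 86.2, 74.6 and 73.2 CPM in controls. Its groups did not overlap either (1.61 ± 0.12, edgeR adjusted p = 7.9e-06), and it and Gabarapl1 were the family's only members called higher with library totals, at 0.74 and 1.89. Gabarap, the most abundant of the family per length, was at 378, 395 and 383 CPM with lactate and 170, 192 and 185 CPM in controls (1.08 ± 0.09, edgeR adjusted p = 1.3e-05). Gabarapl2, also known as GATE-16, was at 70.4, 68.5 and 73.6 CPM with lactate and 39.3, 29.6 and 30.9 CPM in controls (1.09 ± 0.13, edgeR adjusted p = 0.00011). Both were separated in every library but not called with library totals (0.22 and 0.23).

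Map1lc3b encodes LC3B, the protein most used to count autophagosomes, and it moved least in its family. It was at 68.7, 63.0 and 63.1 CPM with lactate and 44.7, 52.8 and 47.3 CPM in controls. The groups did not overlap (0.43 ± 0.11, edgeR adjusted p = 0.0069), but the direction rested on the scaling. With library totals it was called lower (-0.43, edgeR adjusted p = 0.0089), and with the trend of fold change on transcript length removed it was at -0.05 and not called.

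The make-up of the family does not depend on how libraries are scaled. Gabarapl1 made up 10.5%, 10.5% and 12.7% of the family's summed FPKM in lactate libraries and 3.67%, 4.12% and 4.15% in control libraries. Map1lc3a made up 26.2% ± 2.17 with lactate and 20.6% ± 2.25 in controls (SD, n = 3 each). Those 2 shares were larger with lactate in every library.

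The shares of Map1lc3b and Gabarap were smaller. Map1lc3b made up 7.56% ± 0.571 with lactate and 13.5% ± 0.920 in controls, and Gabarap 50.2% ± 0.596 with lactate and 56.6% ± 2.47 in controls (SD, n = 3 each). Gabarapl2 held 4.77% ± 0.298 with lactate and 5.35% ± 0.955 in controls, and its groups overlapped. By mean FPKM the order in controls was Gabarap, Map1lc3a, Map1lc3b, Gabarapl2 and Gabarapl1, and with lactate Gabarapl1 stood behind Gabarap and Map1lc3a and ahead of Map1lc3b. For all but Gabarapl2 the exact two-sided permutation test gave p = 0.10, the smallest that 3 against 3 libraries allow (adjusted p = 0.11 over the 10 shares tested here and below), so no share could pass 0.05.

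**Figure D2:**
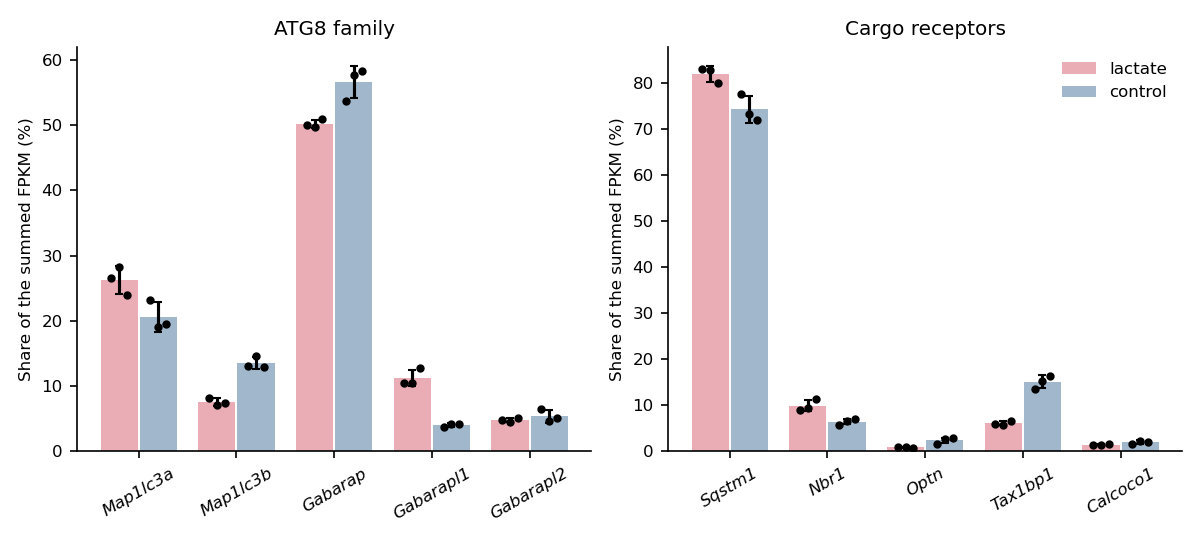
Share of the family's summed FPKM in percent (y axis) for the ATG8 family (left) and the cargo receptors (right), lactate bars left of control bars. Bars are means with the SD over 3 libraries and dots are the libraries. The share of Gabarapl1 is 11.2% with lactate and 3.98% in controls, and that of Tax1bp1 is 6.08% with lactate and 15.1% in controls.

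The cargo receptors split. Sqstm1, Nbr1 and Calcoco1 were higher in lactate libraries and Optn and Tax1bp1 were not called. Sqstm1 encodes p62, which carries ubiquitin-tagged protein into autophagosomes and is degraded with it, and it had the highest mean FPKM of all members in both groups, although Gabarap was above it in 2 of the 3 control libraries. It was at 1031, 1041 and 1099 CPM with lactate and 530, 446 and 399 CPM in controls (1.21 ± 0.12, edgeR adjusted p = 3.1e-05). Nbr1, a relative of p62 that helps it gather cargo, was at 252, 267 and 354 CPM with lactate and 84.3, 86.6 and 82.3 CPM in controls (1.79 ± 0.14, edgeR adjusted p = 1e-05). Neither gene's groups overlapped, and both remained called higher with library totals (0.35 and 0.94).

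Calcoco1, a receptor for parts of the endoplasmic reticulum, was at 26.2, 25.4 and 33.4 CPM with lactate and 16.7, 20.7 and 17.5 CPM in controls (0.63 ± 0.15, edgeR adjusted p = 0.0059). With library totals it was at -0.22 and not called. Tax1bp1, a receptor for ubiquitin-tagged cargo and a brake on inflammatory signalling, was at 117, 114 and 142 CPM with lactate and 139, 139 and 135 CPM in controls. Optn, the optineurin of mitophagy and of bacterial clearance, was at 19.7, 16.5 and 22.3 CPM with lactate and at 19.9, 23.8 and 25.2 CPM in controls. The groups overlapped in both genes (-0.15 ± 0.11, edgeR adjusted p = 0.26, and -0.24 ± 0.15, edgeR adjusted p = 0.21), and both were called lower with library totals.

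Within the receptors Sqstm1 made up 81.9% ± 1.69 of the summed FPKM with lactate and 74.2% ± 2.88 in controls, and Nbr1 9.88% ± 1.27 with lactate and 6.43% ± 0.607 in controls (SD, n = 3 each). Tax1bp1 fell to 6.08% ± 0.385 with lactate, against 15.1% ± 1.39 in controls. The shares of Optn were 0.816% ± 0.0884 with lactate and 2.32% ± 0.601 in controls, and those of Calcoco1 1.36% ± 0.130 with lactate and 1.98% ± 0.333 in controls. None of the 5 overlapped between groups, each at the smallest exact permutation p of 0.10.

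The 5 genes of the ULK complex, which receives the signal to start, went opposite ways, with 2 higher, 2 lower and 1 not called. Atg101, which steadies Atg13 in the complex, was at 74.6, 84.5 and 92.8 CPM with lactate and 19.5, 16.6 and 17.5 CPM in controls (2.23 ± 0.12, edgeR adjusted p = 2.7e-06). Ulk1, the kinase itself, was at 53.8, 48.5 and 75.6 CPM with lactate and 19.0, 22.9 and 21.5 CPM in controls (1.49 ± 0.18, edgeR adjusted p = 0.0001). Ulk2, its close relative, was the reverse, at 12.0, 12.9 and 14.3 CPM with lactate and 32.9, 37.4 and 34.6 CPM in controls (-1.42 ± 0.12, edgeR adjusted p = 2e-05). In all 3 genes the groups were apart in every library, and each kept its direction and its call with library totals.

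Rb1cc1 encodes FIP200, the large scaffold of the complex. It was at 26.6, 25.7 and 61.8 CPM with lactate and 89.6, 106 and 94.6 CPM in controls (-1.35 ± 0.31, edgeR adjusted p = 0.0049). Lactate library 3 stood well above the other lactate libraries but below every control library, and without it the log2 fold change was -1.86. Atg13, the regulatory subunit, was not called and its groups overlapped (0.36 ± 0.25).

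In the lipid kinase complex and its regulators, 2 of 6 were higher, 1 was lower and 3 were not called. Atg14, which brings the complex to the endoplasmic reticulum, was at 11.4, 8.51 and 19.4 CPM with lactate and 4.48, 6.04 and 4.26 CPM in controls (1.41 ± 0.30, edgeR adjusted p = 0.0032). Ambra1, a scaffold that links Beclin 1 to ULK1, was at 52.3, 47.9 and 77.0 CPM with lactate and 27.0, 26.9 and 24.8 CPM in controls (1.17 ± 0.18, edgeR adjusted p = 0.00044). In both, lactate library 3 was the highest, the groups did not overlap, and the call was lost with library totals (0.59 and 0.33).

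The core of the complex moved less with TMM factors, and with library totals Becn1 (-1.10), Pik3c3 (-0.94) and Uvrag (-1.05) were called lower. Becn1, which encodes Beclin 1, averaged 78.9 ± 3.81 CPM with lactate and 93.2 ± 3.81 CPM in controls (SD, n = 3 each), and its call (-0.24 ± 0.09, edgeR adjusted p = 0.04996) was lost without any single library, with adjusted p up to 0.16. The catalytic subunit Pik3c3 (-0.11 ± 0.27), its partner Pik3r4 (0.34 ± 0.22) and Uvrag (-0.20 ± 0.12), which takes the place of Atg14 in a second complex, were not called and their groups overlapped. Pik3c3 was called lower without lactate library 3 (-0.52, edgeR adjusted p = 0.007).

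**Figure D3:**
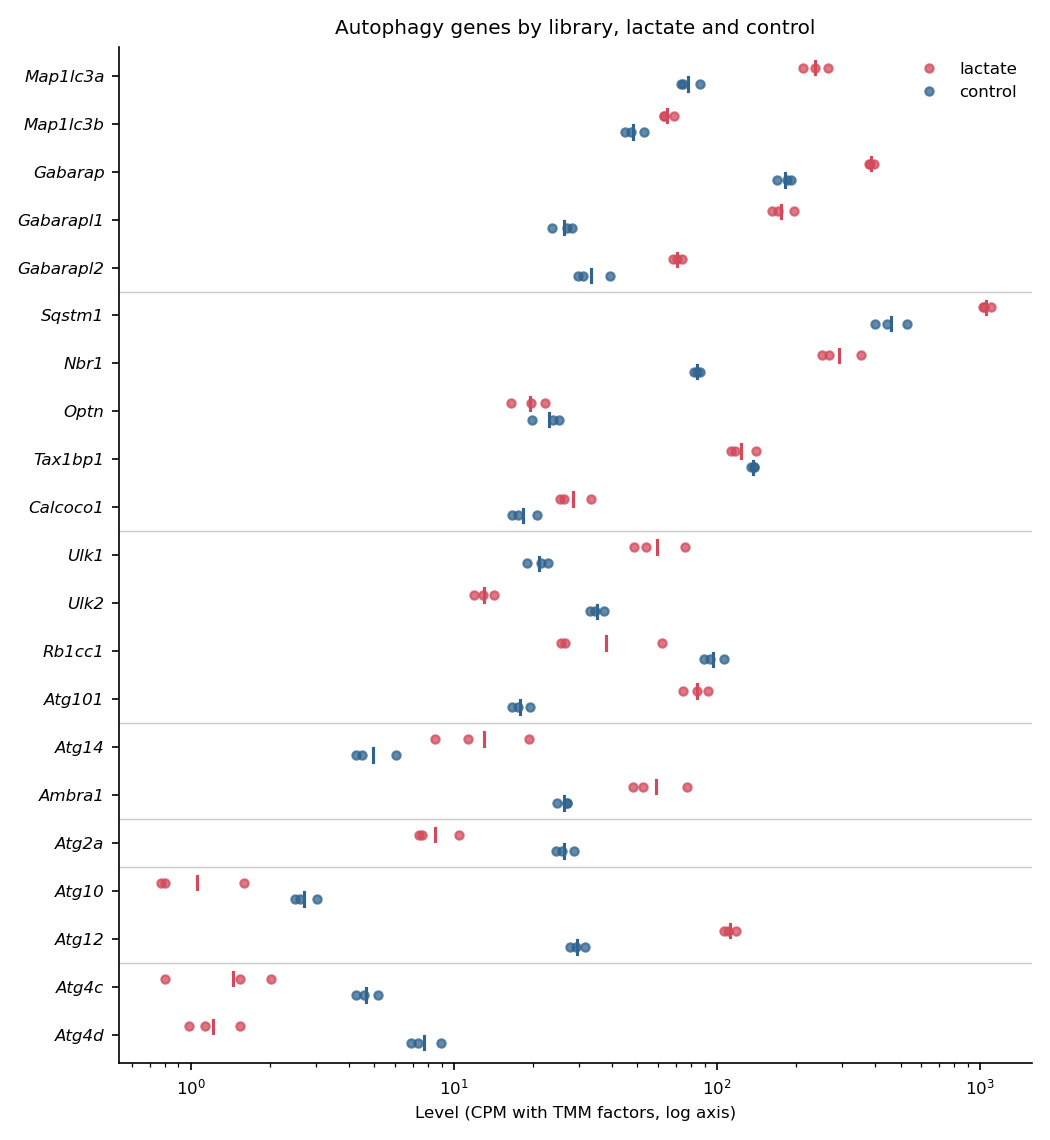
Level in CPM with TMM factors (x axis, log scale) of the 21 members given by library, lactate points above control points for each gene, with the mean as a vertical tick. The groups are apart in all but Optn and Tax1bp1, and 1 lactate library of Rb1cc1 lies at 61.8 CPM against 25.7 and 26.6 CPM in the others.

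Of the 7 genes that supply and shape the membrane, 2 were higher, 2 lower and 3 not called. The paralogs Atg2a and Atg2b, whose proteins carry lipid from the endoplasmic reticulum to the growing membrane, went opposite ways. Atg2a was at 7.61, 7.38 and 10.5 CPM with lactate and 25.9, 28.8 and 24.5 CPM in controls (-1.63 ± 0.17, edgeR adjusted p = 5.5e-05), while Atg2b was at 45.3 to 70.4 CPM with lactate and 37.7 to 39.9 CPM in controls (0.57 ± 0.16, edgeR adjusted p = 0.011). By mean FPKM, Atg2a was at 0.970 with lactate and 5.45 in controls, and Atg2b at 4.33 with lactate and 5.26 in controls.

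Atg9a, the scramblase of the vesicles that seed the membrane, rose by 0.53 ± 0.10 (edgeR adjusted p = 0.0016). Atg9a and Atg2b were at -0.33 and -0.27 with library totals. Wipi1, which reads the lipid made by the kinase complex, fell by 0.78 ± 0.14 (edgeR adjusted p = 0.0011). Its relatives Wipi2 (-0.23 ± 0.15) and Wdr45 (-0.39 ± 0.19) and the scramblase gene Vmp1 (0.01 ± 0.11) were not called, and all 3 were called lower with library totals.

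The enzymes that attach the ATG8 proteins split as well, with 2 of 7 higher, 3 lower and 2 not called. Atg12, the ubiquitin-like tag that is joined to Atg5, was at 107, 118 and 111 CPM with lactate and 31.7, 29.2 and 27.6 CPM in controls (1.93 ± 0.11, edgeR adjusted p = 2.7e-06), and it remained called with library totals (1.07). Atg16l1, which guides the Atg12-Atg5 conjugate to the membrane, rose by 0.98 ± 0.12 (edgeR adjusted p = 0.00011), but was at 0.13 with library totals. Atg5 itself was not called (0.04 ± 0.15), nor was Atg16l2 (0.49 ± 0.21).

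The 3 enzymes of the cascade were all lower. Atg10, which joins Atg12 to Atg5, was the least abundant, at 0.770, 1.60 and 0.803 CPM with lactate and 2.49, 3.02 and 2.61 CPM in controls (-1.36 ± 0.35, edgeR adjusted p = 0.0076). Atg7, which activates both ubiquitin-like proteins, fell by 0.71 ± 0.15 (edgeR adjusted p = 0.0029), and Atg3, which hands the ATG8 proteins to the lipid, fell by 0.43 ± 0.10 (edgeR adjusted p = 0.0061). The groups did not overlap in any of the 3. By mean FPKM, Atg3 was at 16.2 with lactate and 39.8 in controls and Atg12 at 31.3 with lactate and 15.1 in controls, so their order differed between the groups.

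The ATG4 proteases trim new ATG8 proteins and free them from the membrane again. Of the 3 in the table, 2 were lower and 1 was not called. Atg4d, which is also known from mitochondria, fell most of all members, to 1.13, 0.987 and 1.54 CPM with lactate, against 8.94, 7.30 and 6.89 CPM in controls (-2.65 ± 0.25, edgeR adjusted p = 2.8e-05). Atg4c was at 1.54, 0.799 and 2.03 CPM with lactate and 4.24, 5.15 and 4.56 CPM in controls (-1.66 ± 0.33, edgeR adjusted p = 0.0021). Atg4b, the main protease of the family and the most abundant of the 3 per length, was at 24.5 to 30.2 CPM with lactate and 19.3 to 24.6 CPM in controls, with overlap (0.29 ± 0.14, edgeR adjusted p = 0.095).

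Of the 2 genes of mitophagy, Pink1, the kinase that marks damaged mitochondria, was at 48.3 to 55.8 CPM with lactate and 25.2 to 30.2 CPM in controls (0.87 ± 0.12, edgeR adjusted p = 0.0002), and it was level with library totals (0.01). Fundc1, a receptor in the outer mitochondrial membrane, was not called (0.14 ± 0.16). Epg5, the tether that joins autophagosome and lysosome, was at 20.6 to 31.5 CPM with lactate and 16.6 to 20.8 CPM in controls. It was called (0.49 ± 0.18, edgeR adjusted p = 0.039) although the groups overlapped, and the call was lost without control library 1 or 3 or lactate library 1 or 3, with adjusted p up to 0.12.

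Lactate library 3 was the highest of its group in 29 of the 41 members, or 70.7%, and in 39.9% of all genes tested. Without it the median of the members was 0.06, against 0.34 with it, while the counts stayed near, at 17 higher and 12 lower. The median coefficient of variation over the members was 14.1% in lactate and 8.57% in control libraries, and over all genes it was 16.4% in lactate libraries.

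Fold changes followed the level. The members were abundant genes, 29 of 41 lying in the upper 2 of 5 equal groups of all genes tested, ranked by mean log2 CPM. In the highest group the median log2 fold change was 0.80 over 12 members and 0.62 over all 2750 genes, and in the next it was 0.49 over 17 members and 0.05 over all 2749. The 4 members in the lowest 2 groups were Atg10, Atg4c, Atg4d and Atg16l2, of which 3 were called lower, and the medians of all genes there were -0.55 and -0.53. Across the 41 members Spearman's rho of fold change with level was 0.52, and over all 13747 genes it was 0.31. Genes within a library share its depth and make-up, and the part of the level in the members' directions was not tested.

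**Figure D4:**
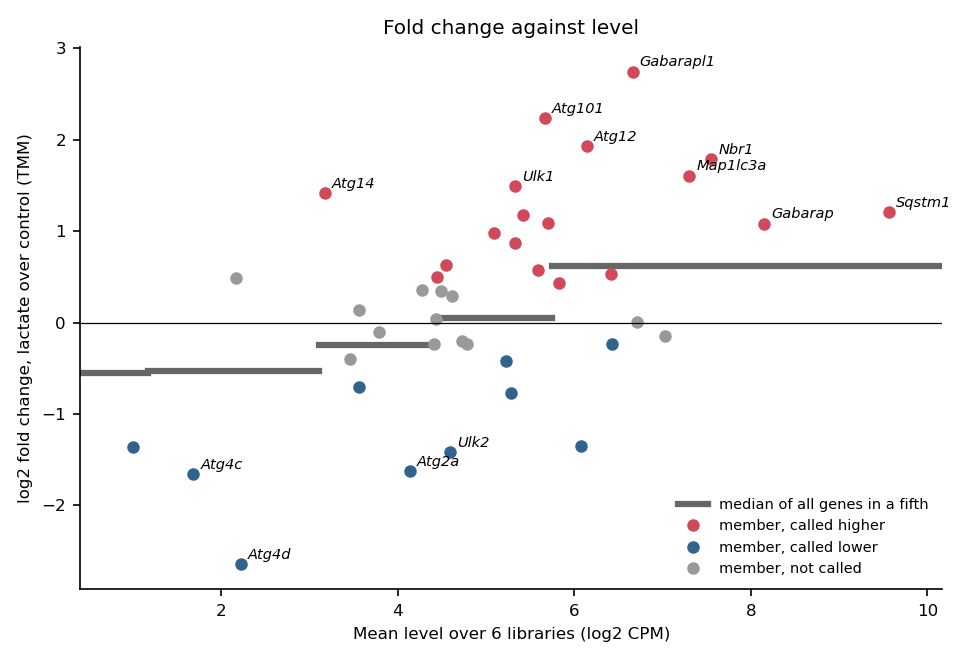
Log2 fold change of lactate over control after TMM scaling (y axis) against the mean level in log2 CPM over 6 libraries (x axis) for the 41 members, colored by the call. Gray bars are the medians of all genes tested in 5 equal groups by level, from -0.55 in the lowest to 0.62 in the highest. The members called lower lie between 1.00 (Atg10) and 6.43 (Becn1), and none of the more abundant members, up to 9.57 (Sqstm1), was called lower. The highest rises lie at middle to high levels.

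Fold changes of all genes also fell with transcript length (Spearman's rho = -0.24 over 13747 genes), but over the members rho was -0.05. With the length trend removed the count of members stayed at 18 higher and 10 lower, with Pik3r4 called (0.62) and Map1lc3b not. In that setting 28.7% of all genes were called higher and 35.5% lower, 64.2% in all.

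Of the other genes of the pathway, taken from 5 lists, 66 were tested, and 23 were higher, 27 lower and 16 not called. That is 34.8% higher, 40.9% lower and 75.8% called, beside 31.4%, 34.6% and 66.0% of all genes tested. In the list of fusion with the lysosome 11 of 15 were lower and 2 higher, with a median of -0.58. With 1 library left out, 8 to 12 were called lower and 2 to 3 higher. With library totals 13 were lower and 0 higher, with a median of -1.43, where 61.7% of all genes were lower and 12.6% higher. Both partners of the SNARE bundle on the autophagosome were lowest. Stx17, the syntaxin of closed autophagosomes, was at 1.63, 1.41 and 0.768 CPM with lactate and 7.26, 9.08 and 8.33 CPM in controls (-2.71 ± 0.29, edgeR adjusted p = 6.5e-05). Its partner Snap29 was at 2.81, 3.20 and 4.26 CPM with lactate and 20.8, 20.0 and 21.7 CPM in controls (-2.60 ± 0.18, edgeR adjusted p = 6.8e-06). The tether gene Tecpr1 fell to 0.378 times its control level, and the genes called higher were Ykt6, a second autophagosomal SNARE (0.65 ± 0.10), and Rubcn, an inhibitor of fusion (0.68 ± 0.18), at -0.20 and -0.16 with library totals.

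Of the other factors of initiation and membrane supply 7 of 11 were higher and 2 lower, with a median of 0.67. That is 63.6% and 18.2%, beside 31.4% and 34.6% of all genes tested. With library totals 4 were higher and 3 lower, with a median of -0.17, beside 12.6% and 61.7% of all genes. Zfyve1, which marks the membrane platform where autophagosomes form, was at 75.8, 72.4 and 94.6 CPM with lactate and 11.6, 11.8 and 11.2 CPM in controls (2.81 ± 0.13, edgeR adjusted p = 1.9e-06). The GTPase gene Rab33b rose by 2.11 ± 0.10 and the scramblase gene Tmem41b by 1.54 ± 0.16. Trappc8, a subunit of a complex in the traffic of ATG9, fell by 2.02 ± 0.19, and the sorting nexin gene Snx4 fell by 0.44 ± 0.12.

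Among other selective receptors, 6 of 15 were higher, 5 lower and 4 not called, with a median of 0.11. That is 40.0% higher and 33.3% lower, beside 31.4% and 34.6% of all genes tested. With library totals 2 were higher and 9 lower, with a median of -0.74, beside 12.6% and 61.7% of all genes. Tollip, a receptor for aggregated protein, was at 346, 351 and 351 CPM with lactate and 56.5, 43.9 and 44.6 CPM in controls (2.85 ± 0.12, edgeR adjusted p = 1.4e-06). Bcl2l13, a mitochondrial receptor, rose by 1.45 ± 0.13 and Rtn3, a receptor for endoplasmic reticulum tubules, by 0.91 ± 0.09 (0.05 and not called with library totals). Fundc2, a relative of Fundc1, fell by 1.71 ± 0.15, the mitophagy receptor gene Bnip3l fell by 1.21 ± 0.14 and Atl3, another receptor for tubules, fell by 1.07 ± 0.11.

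Of 9 transcription factors that act on autophagy genes, 4 were higher, 0 lower and 5 not called. That is 44.4% called, beside 66.0% of all genes tested. With library totals 3 were higher and 6 lower, beside 12.6% and 61.7% of all genes. Without lactate library 3 there were 3 lower. Ddit3, the stress factor CHOP, was at 572, 573 and 425 CPM with lactate and 21.4, 20.4 and 19.2 CPM in controls (4.69 ± 0.15, edgeR adjusted p = 4.9e-07). Foxo3 rose by 1.36 ± 0.16 and Atf4 by 1.34 ± 0.16. Tfeb, the master regulator of lysosomal genes, was at 10.7, 13.5 and 14.1 CPM with lactate and 9.66, 11.5 and 9.96 CPM in controls, with overlap (0.30 ± 0.16, edgeR adjusted p = 0.13), and it was called lower with library totals (-0.55).

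Of 16 genes of mTORC1 and AMPK, the nutrient and energy kinases that hold ULK1 back or drive it, 9 were lower, 4 higher and 3 not called. Of all genes tested 34.6% were lower and 31.4% higher. With library totals 12 of the 16 were lower and 3 higher, where 61.7% of all genes were lower and 12.6% higher. Mtor itself was at 16.9, 11.8 and 22.2 CPM with lactate and 58.1, 60.0 and 63.6 CPM in controls (-1.83 ± 0.21, edgeR adjusted p = 7.8e-05). Its partner Mlst8 fell by 2.20 ± 0.15, and the AMPK subunit gene Prkab1 fell by 1.01 ± 0.12. The stress-induced inhibitors of mTORC1 Ddit4 and Sesn2 rose by 2.80 ± 0.25 and 1.89 ± 0.17, and its activator Rheb rose by 1.13 ± 0.10 (0.28 and not called with library totals). Other inhibitors of mTORC1 in the list, named after their values were seen, went different ways. Sesn3 fell by 1.14 ± 0.14 and Akt1s1 fell by 0.81 ± 0.11 (edgeR adjusted p = 0.00012 and 0.00028). Sesn1 was called higher, with library totals as well. Tsc1, Tsc2 and Deptor were not called, and with library totals they were called lower.

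**Figure D5:**
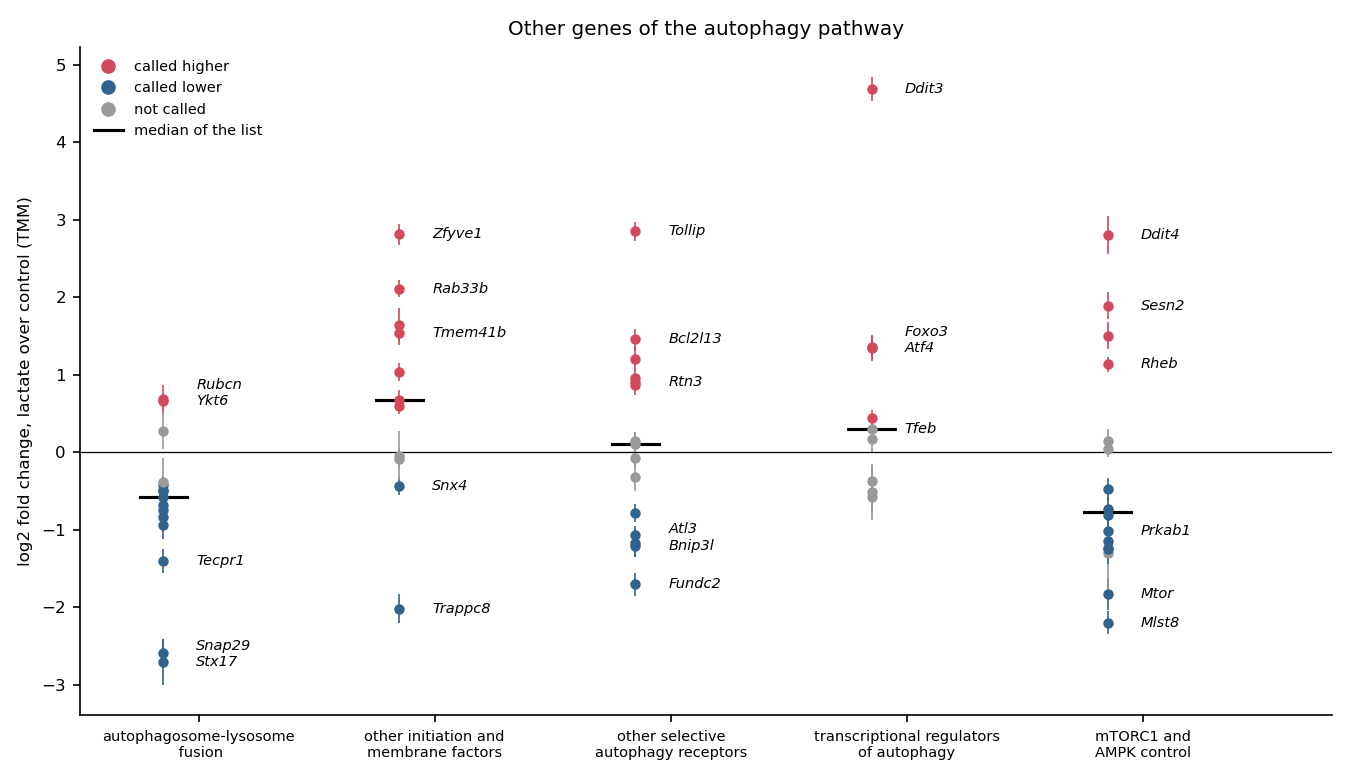
Log2 fold change of lactate over control with TMM factors and its SE (y axis) for the other pathway genes in 5 lists (x axis), colored by the call. The median of each list is a black bar, and the genes named by smallest p, Atf4, Ddit3 and Tfeb are labelled. The fusion list and the list of mTORC1 and AMPK have medians of -0.58 and -0.77, and Stx17 and Snap29 are the lowest points of the plot.

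In the authors' deposited table, 17 members had an FDR under 0.05 and a positive fold change and 9 a negative one, where 51.6% of its 17273 genes passed that FDR in either direction. All 26 were called here, and the 2 called here alone were Becn1 and Epg5. The authors' table of selected genes held 17 of the 41 members, where it held 36.8% of all genes, and those were the 17 with a change of at least 2-fold above.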

How the data were processed

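RNA-seq of 3 lactate and 3 control libraries was analysed. The authors deposited raw read counts per gene and FPKM, per the file headers, together with a comparison of their own, given as log2 ratios and p-values. GRCm38 and mm10 stand in the submitters' processing notes as genome builds, and both belong to mouse, although the cells are from rat. Which genome was aligned to was not settled, and strand use, aligner and counting tool were not given. The counts of any gene, and the absence of genes such as Atg4a, may therefore depend on the genome used. Genes with near-identical copies are uncertain as well.

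Deposited counts were tested with edgeR 4.0.16 in R 4.3.3 (quasi-likelihood test, TMM factors, filterByExpr, group as the only term, Benjamini-Hochberg adjustment over 13747 genes). Shares within a family were computed from the authors' FPKM. Relative transcript length came from the ratio of counts to FPKM. Libraries held 30291357 to 38989574 counts, and 3 counts, the limit that a count of 0 allows for counting error, came to 0.0581 to 0.141 CPM. Other settings tried were DESeq2 1.42.0, library totals, RLE or upper-quartile factors, other filters, a replicate block, removal of a trend on length and each library left out.

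The members and the gene lists were chosen with earlier results of these data known, so no call was adjusted over a list. Only the permutation p of the 10 shares was. Values by library are given for the ATG8 family, the receptors and members called with a log2 change of at least 1 and no overlap. Of each other list up to 3 called genes in each direction with the smallest p are named, and also Atf4, Ddit3 and Tfeb. Further inhibitors of mTORC1, and genes whose sign turned, were named after their values were seen.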

Additional observations from a re-analysis of the deposited data

How the results depend on the processing

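Of all genes tested, 9079 were called, and 8509 to 10211 under the other scalings, filters, DESeq2, the replicate block and removal of the length trend. The counts of members called, 18 higher and 10 lower, kept within 1.5 times under each of these but library totals, which gave 7 and 22. Other pathway genes were 12 higher and 43 lower with library totals, against 23 and 27. Library totals called 12.6% of all genes higher and 61.7% lower. The median of the members, 0.34, was -0.49 with library totals, 0.11 with the length trend removed and 0.061 (without lactate library 3) to 0.40 with 1 library left out. Leaving out 1 library gave 8026 to 9407 genes called, 17 to 18 members higher and 9 to 12 lower, and 23 to 24 other pathway genes higher and 24 to 32 lower.

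With library totals the sign turned to minus for the members Map1lc3b (-0.43), Calcoco1 (-0.22), Atg2b (-0.27), Atg4b (-0.56), Atg5 (-0.80), Atg9a (-0.33), Atg13 (-0.47), Atg16l2 (-0.37), Pik3r4 (-0.49), Vmp1 (-0.85), Fundc1 (-0.71) and Epg5 (-0.35). Among the other pathway genes it turned for Ykt6 (-0.20), Rubcn (-0.16), Tfeb (-0.55), Tsc1 (-0.70), Tsc2 (-0.81) and Nfe2l2 (-0.41). It also turned for Rab1a (-0.26), Tbc1d14 (-0.17), Vamp8 (-0.60), Foxo1 (-0.69), Fkbp8 (-0.73) and Ncoa4 (-0.74). Nfe2l2 was called higher with TMM factors (0.44) and lower with library totals. Among the members the sign also turned with the length trend removed for Map1lc3b (-0.045), Atg5 (-0.0067), Pik3c3 (0.0016) and Vmp1 (-0.025), and with upper-quartile factors for Atg5 (-0.12), Vmp1 (-0.15) and Fundc1 (-0.021). Vmp1 was at -0.0074 with a mean CPM of at least 1 and -0.027 with no filter. With 1 library left out the sign turned in some settings for the members Atg5 (-0.079 to 0.128), Pik3c3 (-0.519 to 0.085) and Vmp1 (-0.063 to 0.078). The cause was not tested.

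Shares taken from raw counts differed by 11.7 percentage points for Gabarapl1, 7.29 for Nbr1 and -11.0 for Tax1bp1, against 7.24, 3.45 and -9.00 from FPKM. With 1 library left out each of the 10 differences kept its sign.

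Deviations of same-numbered libraries correlated little, at 0.0078, 0.038 and 0.084, and those of differently numbered ones ran from -0.108 to 0.071. With 3 libraries per group, weak pairing cannot be told from none. With the replicate block 17 members were higher and 9 lower, the calls of Becn1 and Epg5 being lost, and 8814 of all genes were called.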

Other observations

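Autophagy genes reported as targets of stress factors in other cells did not move as one. Of 12 genes reported as targets of ATF4 or CHOP in mouse fibroblasts, 7 were higher, 4 lower and 1 not called, and their median was 0.70 on the log2 scale (-0.15 with library totals, 3 of them then higher and 6 lower). Atg12 (1.93), Nbr1 (1.79) and Sqstm1 (1.21) were the highest, and Atg10 (-1.36) and Atg7 (-0.71) the lowest. Of 7 genes reported as targets of FOXO3 in mouse muscle, 3 were higher, 2 lower and 2 not called, with Gabarapl1 at 2.74 and Ulk2 at -1.42. With library totals 2 of these were higher and 5 lower, with a median of -0.56. Of 4 reported as targets of TFEB in human cells, Sqstm1 and Map1lc3b were higher, Wipi1 was lower and Uvrag was not called. With library totals Sqstm1 was higher and the other 3 were lower, with a median of -0.74. The lists were chosen with earlier results of these data known. Of all genes 66.0% were called, and with library totals 12.6% were higher and 61.7% lower.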
